A study of Mus musculus with 12 samples.

Results

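The 9 genes described here are 7 globin genes and 2 other genes of red blood cells, chosen by symbol among the 53392 gene identifiers that each of the 4 deposited tables lists. Hba-x is the embryonic alpha-like globin, Hba-a1 and Hba-a2 are the adult alpha globins, Hbb-y and Hbb-bh1 are the embryonic beta-like globins, and Hbb-bs and Hbb-bt are the adult beta globins. Alas2 encodes the erythroid form of the enzyme that starts haem synthesis, and Slc4a1 encodes band 3, the anion exchanger of the red cell membrane. All 9 genes passed the filter on low counts in each of the 3 comparisons made below.

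Haemoglobin is built from alpha-like and beta-like chains, each holding a haem group. The earliest red cells of the mouse, the primitive lineage, arise in the yolk sac and circulate with a nucleus, and their main globins are Hba-x, Hbb-bh1 and Hbb-y beside the adult alpha chains. Definitive red cells, made in the fetal liver, express the adult alpha and beta globins and replace the primitive cells in the blood during midgestation, while primitive cells switch from Hbb-bh1 to Hbb-y as they mature.

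Polyadenylated RNA of facial tissue from mouse embryos on the 129S4 background was sequenced in 12 libraries, in 4 groups of 3. The tissue had been digested with trypsin to take off the ectoderm, and the ectoderm marker levels that remained are given below. At embryonic day E13.5 the tissue was palatal shelf mesenchyme (PS), the shelves that form the secondary palate, from Pdgfra+/+ embryos (wild-type) and from PdgfraPI3K/PI3K embryos, which carry a changed allele of the receptor gene Pdgfra on both chromosomes. At E11.5 the tissue was maxillary process mesenchyme (MxP), the swelling from which the shelves grow. All 6 MxP libraries came from embryos homozygous for a floxed Srsf3 allele. The Srsf3fl/fl;Wnt1-Cre+/+ embryos had no Cre transgene and were the controls, and the Srsf3fl/fl;Wnt1-Cre+/Tg embryos carried Wnt1-Cre, a transgene active in the neural crest lineage and not in blood cells, and were labelled conditional knockouts (cKO). The labels do not say whether a library is 1 embryo or a pool, or whether replicate numbers mark litters, so p-values measure the spread between these libraries. Stage, tissue, parental genotype and deposited table all differ between the PS and MxP libraries and cannot be told apart, so "E13.5" and "E11.5" name these groups of libraries below.

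Estimated counts summed to between 30509338 and 37406960 in the PS libraries and to between 15932541 and 27887654 in the MxP libraries. Levels are given in TPM, a unit of transcript abundance that corrects each gene for its length and each library for its depth. Srsf3 itself ran from 320 to 441 TPM in the libraries labelled Srsf3 cKO and from 407 to 470 TPM in their controls, and its gene total did not pass the test (log2 fold change 0.03, SE 0.14, adjusted p = 0.954, edgeR), so the label could not be checked by the gene total. Transcripts of 10 mesenchyme markers summed to 1820 to 5291 TPM in the 12 libraries. The tissue also held other cells: 10 endothelial markers summed to 234 to 574 TPM, and 10 ectoderm markers summed to 376 to 902 TPM in the PS libraries against 1.66 to 17.6 TPM in the MxP libraries.

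The genes of each globin family lie side by side. In build GRCm38 the alpha family is on chromosome 11, plus strand, with Hba-x at 32276400 to 32278116, Hba-a1 at 32283511 to 32284465 and Hba-a2 at 32296489 to 32297298. The beta family is on chromosome 7, minus strand, with Hbb-y at 103851749 to 103853216, Hbb-bh1 at 103841637 to 103843164, Hbb-bs at 103826534 to 103828096 and Hbb-bt at 103812524 to 103813996. Slc4a1 lies elsewhere on chromosome 11 (102348824 to 102366203, minus strand) and Alas2 on the X chromosome (150547375 to 150570638, plus strand). All 9 are annotated as protein-coding.

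The sequences below stand just upstream of an embryonic beta-like gene, an adult beta gene and an adult alpha gene, 1 for each pattern seen between the stages. They are from RefSeq (GRCm38.p6), for which 7 of the 9 genes had an entry, and leave out all annotated exon bases. Distances are counted from the RefSeq start of each gene. Hbb-y covers chr7:103853217-103853366 on the minus strand and starts 159 bases before the RefSeq start. Hbb-bs covers chr7:103827929-103828011 on the minus strand, the last 83 bases before the RefSeq start. This Hbb-bs stretch lies inside the gene span given above, which reaches further upstream than the RefSeq start. Hba-a2 covers chr11:32296339-32296488 on the plus strand and starts 153 bases before its RefSeq start. Each runs 5′ to 3′ in the direction of transcription, and capitals mark matches, on either strand, to the motifs named after the sequences.
Hbb-y: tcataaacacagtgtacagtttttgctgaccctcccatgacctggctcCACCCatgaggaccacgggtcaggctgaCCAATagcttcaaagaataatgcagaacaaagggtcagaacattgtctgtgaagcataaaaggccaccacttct
Hbb-bs: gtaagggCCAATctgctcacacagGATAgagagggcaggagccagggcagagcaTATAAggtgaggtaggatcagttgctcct
Hba-a2: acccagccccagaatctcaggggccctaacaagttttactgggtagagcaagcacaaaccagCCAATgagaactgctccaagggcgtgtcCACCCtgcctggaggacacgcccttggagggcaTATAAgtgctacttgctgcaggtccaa
The first motif, CCAAT, is a common proximal promoter box. It began 83 bases before the start in Hbb-y, 76 in Hbb-bs and 91 in Hba-a2. The second, CACCC, is the core bound by KLF1, an activator of red cell genes, and began 111 bases before the start in Hbb-y and 63 in Hba-a2. The TATA box was searched for as TATAA and began 29 bases before the start in Hbb-bs and 30 in Hba-a2. The core of the red cell factor GATA1, searched for as GATA, began 59 bases before the start in Hbb-bs. Short motifs are frequent by their length alone. Of 32851 promoters in the table, the 250 bases before the start held the GATA1 core in 53.6%, the KLF1 core in 52.0%, the CCAAT box in 33.85% and the TATA box in 22.8%. The printed stretches are shorter than this window. Over the full 250 bases, exon bases included, the GATA1 core was found 2 times in Hbb-y, 2 in Hbb-bs and 1 in Hba-a2, and the KLF1 core 1, 1 and 2 times, so no difference between the genes is read from the capitals. A match is a description of the letters only.

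Near-identical copies limit what can be said of single adult globins. Of the 31-base stretches in the annotated Hba-a2 transcripts, 92.6% were also in Hba-a1, and 75.4% of those in Hba-a1 were in Hba-a2. Hbb-bt shared 59.4% of its stretches with Hbb-bs, and Hbb-bs shared 54.4% with Hbb-bt. Every other pair among the 7 globins, embryonic genes included, shared 0%. The split within each adult pair is therefore uncertain, while the sum of a pair and the levels of Hba-x, Hbb-y and Hbb-bh1 do not rest on it. Mouse strains also differ in which adult beta globin gene pair they carry, and the match between the strain's genes and the reference was not tested.

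At E11.5 the embryonic globins were among the most abundant transcripts of the maxillary process. Hbb-y ranked between 2 and 18 by TPM over all genes in the 6 MxP libraries, and Hba-x between 3 and 17. Together the 9 genes took up 1.92% ± 0.513 of all TPM in the controls and 2.58% ± 1.33 in cKO-labelled MxP (SD, n = 3 each). At E13.5 they took up 0.837% ± 0.317 in wild-type and 0.551% ± 0.144 in PI3K palatal shelves (SD, n = 3 each). In bulk tissue such as this, fewer red cells and less RNA per red cell cannot be told apart.

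**Figure D1:**
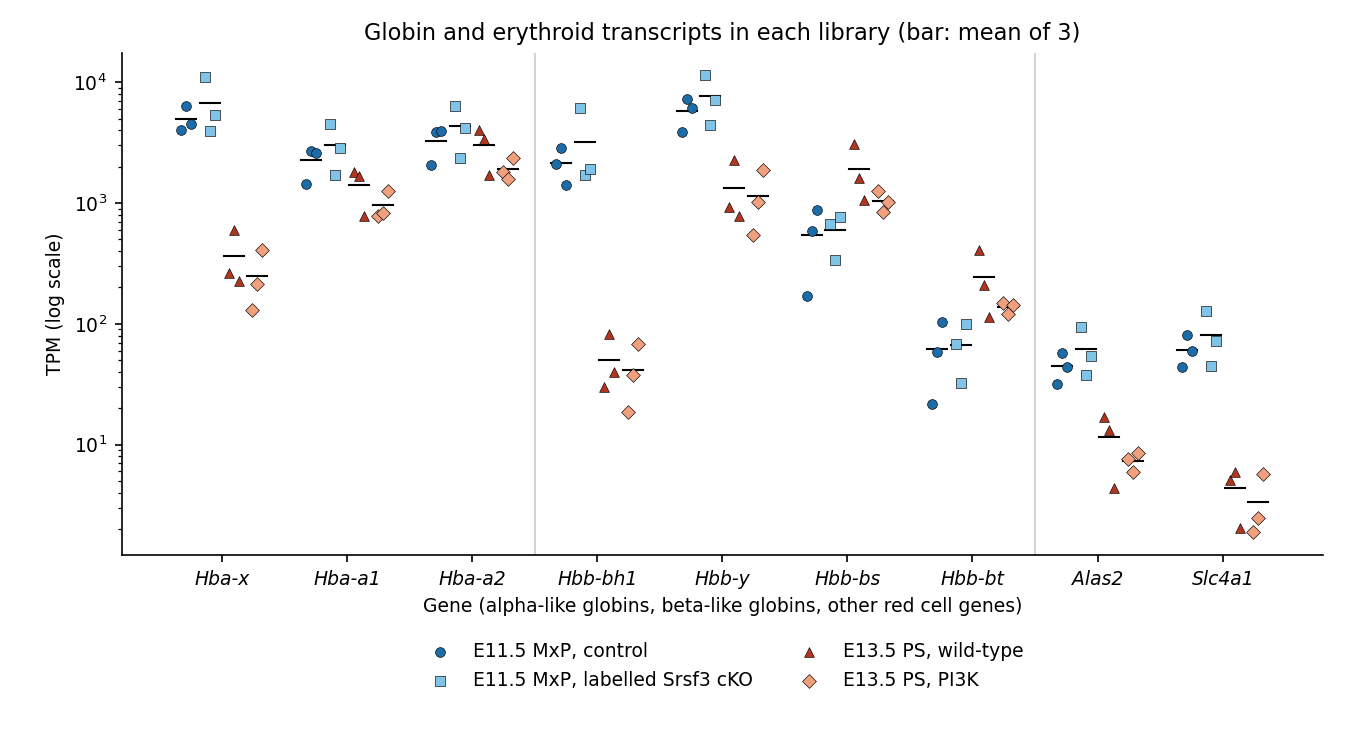
TPM (log scale) of the 9 genes in each of the 12 libraries, with 4 groups per gene and a bar at the mean of 3 libraries. Hba-x, Hbb-bh1, Hbb-y, Alas2 and Slc4a1 are lower in every E13.5 library than in every E11.5 library, Hbb-bt is higher in every E13.5 library, Hbb-bs overlaps only between PI3K PS library 2 (846 TPM) and control MxP library 3 (869 TPM), and Hba-a1 and Hba-a2 overlap.

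The comparison of stages used the 2 groups without the studied mutation or Cre, E13.5 wild-type PS against E11.5 control MxP, and asked how far the red cell transcripts in the tissue had moved from the embryonic to the adult set. The embryonic globins, Alas2 and Slc4a1 were lower and the adult beta globins were higher at E13.5. In all, 7 of the 9 genes passed an adjusted p of 0.05 in edgeR's quasi-likelihood test, in a comparison in which 50.6% of 15752 genes did. Of the 9 genes, 2 rose, where 27.1% of all genes rose, and 5 fell, where 23.4% of all genes fell. Their median log2 fold change was -2.07, beside 0.03 over all genes tested. The size and direction of single genes, rather than the count of calls, are therefore given below.

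Hbb-bh1, the earliest beta-like globin, had the greatest fall of the 9 genes. Its level was 2111, 2882 and 1412 TPM in control MxP libraries 1, 2 and 3 and 29.7, 81.9 and 39.7 TPM in wild-type PS libraries 1, 2 and 3. Every control library was thus above every wild-type PS library by more than an order of magnitude. The log2 fold change was -5.48 (SE 0.48, adjusted p = 0.000204, edgeR), or 44.6-fold lower at E13.5. Hbb-y, the beta-like globin that primitive cells keep as they mature, fell by less. It had 3898, 7324 and 6180 TPM in the controls and 922, 2276 and 783 TPM in wild-type PS, again without overlap. Its log2 fold change was -2.19 (SE 0.44, adjusted p = 0.00498, edgeR), or 4.55-fold lower.

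Hba-x, the embryonic alpha-like globin also called zeta globin, had 3997, 6415 and 4563 TPM in the controls and 265, 599 and 228 TPM in wild-type PS. The groups did not overlap, and wild-type PS library 2 was the highest of its group for all 3 embryonic globins. Hba-x fell 14.7-fold (log2 fold change -3.88, SE 0.42, adjusted p = 0.000463, edgeR). Its level thus moved further than that of Hbb-y and less far than that of Hbb-bh1, although these differences between genes were not tested in the fit.

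The adult beta globins moved the other way. Hbb-bs had 170, 592 and 869 TPM in the controls and 3061, 1614 and 1054 TPM in wild-type PS, and Hbb-bt had 21.6, 58.8 and 104 TPM against 412, 210 and 115 TPM. Neither gene overlapped between the groups, but the gap was narrow: control library 3 and wild-type PS library 3 were close to each other. Hbb-bs rose 3.45-fold (log2 fold change 1.79, SE 0.58, adjusted p = 0.0352) and Hbb-bt rose 3.86-fold (1.95, SE 0.59, adjusted p = 0.0275, edgeR). These calls rested on few libraries. The Hbb-bs call was lost without wild-type library 1 (adjusted p = 0.117), wild-type library 2 (0.0557) or control library 2 (0.0927), and the Hbb-bt call without wild-type library 1 (0.0915), control library 1 (0.0575) or control library 2 (0.0904), all in edgeR.

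The adult alpha globins did not pass the test. Hba-a1 had 1448, 2706 and 2609 TPM in the controls and 1806, 1664 and 782 TPM in wild-type PS, and Hba-a2 had 2054, 3861 and 3967 TPM against 4037, 3370 and 1724 TPM. Both pairs of groups overlapped. The log2 fold change was -0.73 (95% interval -1.55 to 0.08, adjusted p = 0.118, edgeR) for Hba-a1 and -0.14 (-0.95 to 0.67, adjusted p = 0.763, edgeR) for Hba-a2, whose estimate was 0.17 without wild-type library 3. Adult alpha globin was therefore abundant at both stages. The share of the adult alpha signal given to Hba-a2 also differed: Hba-a2 had 1.39 to 1.52 times the TPM of Hba-a1 in the 6 E11.5 libraries and 1.90 to 2.27 times in the 6 E13.5 libraries, a value that depends on how reads were split between the near-identical pair.

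Alas2 and Slc4a1, which serve all red cells, fell with the embryonic globins. Alas2 had 31.8, 57.2 and 44.1 TPM in the controls and 16.9, 13.3 and 4.39 TPM in wild-type PS, a 4.19-fold fall (log2 fold change -2.07, SE 0.45, adjusted p = 0.00743, edgeR). Slc4a1 had 43.6, 80.5 and 59.3 TPM in the controls and 5.05, 5.98 and 2.05 TPM in wild-type PS, a 15.7-fold fall (log2 fold change -3.97, SE 0.41, adjusted p = 0.000389, edgeR). The groups did not overlap for either gene, and wild-type PS library 3 was the lowest of all 6 for both.

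The other 6 libraries, PI3K PS against MxP labelled Srsf3 cKO, gave a second contrast of the same stages with no library in common, added after the values had been seen. Of 15948 genes tested, 6900 passed the threshold there, as did 7 of the 9 genes, all lower at E13.5. Hbb-bh1 was 84.7-fold lower, Hba-x 30.4-fold, Slc4a1 28.3-fold, Alas2 9.50-fold and Hbb-y 7.32-fold, with adjusted p-values of 0.00261 or less (edgeR). Hba-a1 (3.48-fold lower, adjusted p = 0.00373) and Hba-a2 (2.44-fold lower, adjusted p = 0.0128, edgeR) also passed here. Hbb-bs and Hbb-bt were higher in estimate (log2 fold changes 0.68 and 0.90) and missed the threshold (adjusted p = 0.0788 and 0.0614, edgeR). Each of the 9 log2 fold changes was lower here than in the contrast of wild-type with control, and cKO library 1, with the highest globin total of the 12 libraries, was part of it.

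**Figure D2:**
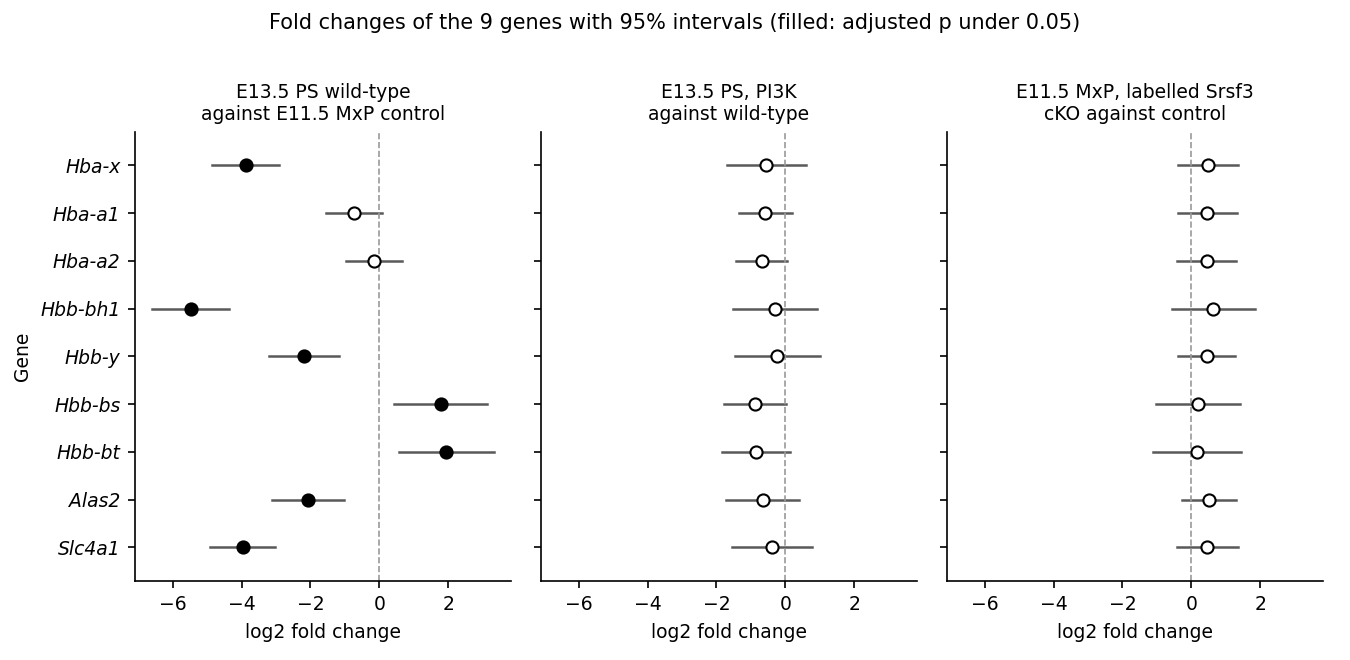
Log2 fold change of the 9 genes with its 95% interval in the 3 comparisons (edgeR), filled where the adjusted p is under 0.05. Between stages 5 genes fell and 2 rose, while within each tissue all 9 intervals include 0.

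Ratios within a library describe the composition of the globin pool and do not depend on scaling between tables. They were taken from sums of TPM. The embryonic share of beta-like globin, Hbb-y plus Hbb-bh1, was 96.9%, 94.0% and 88.6% in control MxP, and it was 95.9%, 94.2% and 91.2% in MxP labelled cKO. At E13.5 it was 21.5%, 56.4% and 41.3% in wild-type and 28.5%, 52.5% and 62.3% in PI3K palatal shelves. All E13.5 libraries were below all E11.5 libraries, and the E13.5 libraries spread far more widely. Adult beta globin was thus the minor part of the beta-like pool in every E11.5 library and the larger part in 3 of 6 E13.5 libraries.

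**Figure D3:**
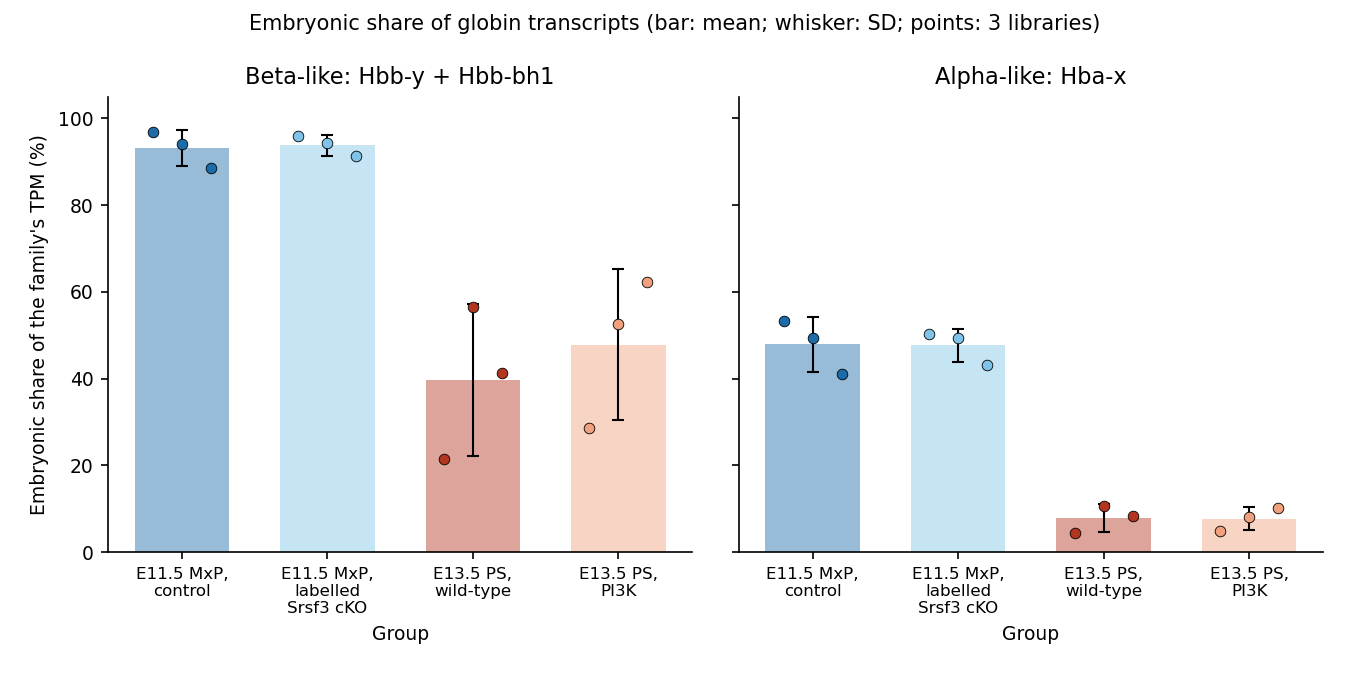
Embryonic share (%) of beta-like and of alpha-like globin TPM by group, with bars for the mean, whiskers for the SD and points for the 3 libraries. The beta-like share is 88.6% to 96.9% at E11.5 and 21.5% to 62.3% at E13.5, and the alpha-like share is 41.0% to 53.3% and 4.33% to 10.6%.

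The ratio of embryonic to adult beta globin ran from 7.81 to 31.4 at E11.5 and from 0.274 to 1.66 at E13.5, with medians of 16.02 and 0.904 (n = 6 each). It was 21.0-fold lower at E13.5 (two-sided exact permutation test of 6 against 6 libraries, p = 0.002165, the smallest this design allows, adjusted p = 0.007792 over 18 ratio tests). Among alpha globins, Hba-x stood to the adult genes at 0.694 to 1.14 at E11.5 and at 0.0453 to 0.119 at E13.5, an 11.54-fold difference with the same exact permutation p = 0.002165. Hba-x thus about equalled the summed adult alpha genes at E11.5, whereas the embryonic beta-like genes exceeded the adult beta genes there many times over.

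The composition of the embryonic beta-like pool also differed. Hbb-bh1 stood to Hbb-y at 0.542, 0.393 and 0.229 in control MxP, at 0.533, 0.387 and 0.268 in MxP labelled Srsf3 cKO, and between 0.0322 and 0.0507 in the 6 PS libraries. That ratio was 10.0-fold lower at E13.5 (exact permutation test, p = 0.002165, adjusted p = 0.007792), with no overlap. Hbb-bh1 made up 16.5% to 34.05% of beta-like globin TPM at E11.5 and 0.671% to 2.19% at E13.5, while Hbb-y made up 62.6% to 72.2% and 20.8% to 60.2%. So Hbb-y was the main beta-like globin in all E11.5 libraries and was still the larger of the embryonic pair in all E13.5 libraries.

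The balance of the families was nearly constant. Alpha-like over beta-like TPM was between 1.196 and 1.30 in the 6 E11.5 libraries and between 1.29 and 1.38 in the 6 E13.5 libraries. The 1.09-fold difference passed the exact permutation test (p = 0.006494, adjusted p = 0.01948), but the groups overlapped, and with estimated counts in place of TPM the log2 difference reversed from 0.12 to -0.18. The direction of this small difference thus depended on the correction for transcript length.

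Alas2 and Slc4a1 were lower also against globin. Alas2 stood at 2.24 to 2.60 TPM per 1000 globin TPM at E11.5 and at 0.9302 to 1.60 at E13.5, a 1.83-fold difference. Slc4a1 stood at 3.01 to 3.38 TPM per 1000 globin TPM at E11.5 and at 0.401 to 0.804 at E13.5, a 6.003-fold difference. Neither overlapped between the stages (exact permutation p = 0.002165 each, adjusted p = 0.007792). At E11.5 Slc4a1 was above Alas2 in all 6 libraries, and at E13.5 it was below Alas2 in all 6. The narrow spread at E11.5 held although total globin there ran from 13699.5 to 40216.5 TPM.

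Within each stage the families shifted together from library to library. Over the 6 E11.5 libraries the log2 embryonic-to-adult ratio of the alpha family correlated with that of the beta family (Pearson r = 0.967, permutation p = 0.002778; Spearman rho = 0.943, p = 0.01667). Over the 6 E13.5 libraries r was 0.958 (permutation p = 0.005556) and rho 0.886 (p = 0.0333). Adjusted over the 4 relations examined, the p-values for r were 0.005556 and 0.007407 in the permutation test. Without the 2 libraries farthest from the median r was 0.934 and 0.729. The alpha ratio also went with Hbb-bh1 over Hbb-y at E11.5 (r = 0.966, permutation p = 0.001389, adjusted 0.005556; rho = 1, p = 0.002778; r = 0.774 without the 2 farthest), but not measurably at E13.5 (r = 0.428, permutation p = 0.454; rho = 0.486, p = 0.356; r = -0.559 without the 2 farthest).

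**Figure D4:**
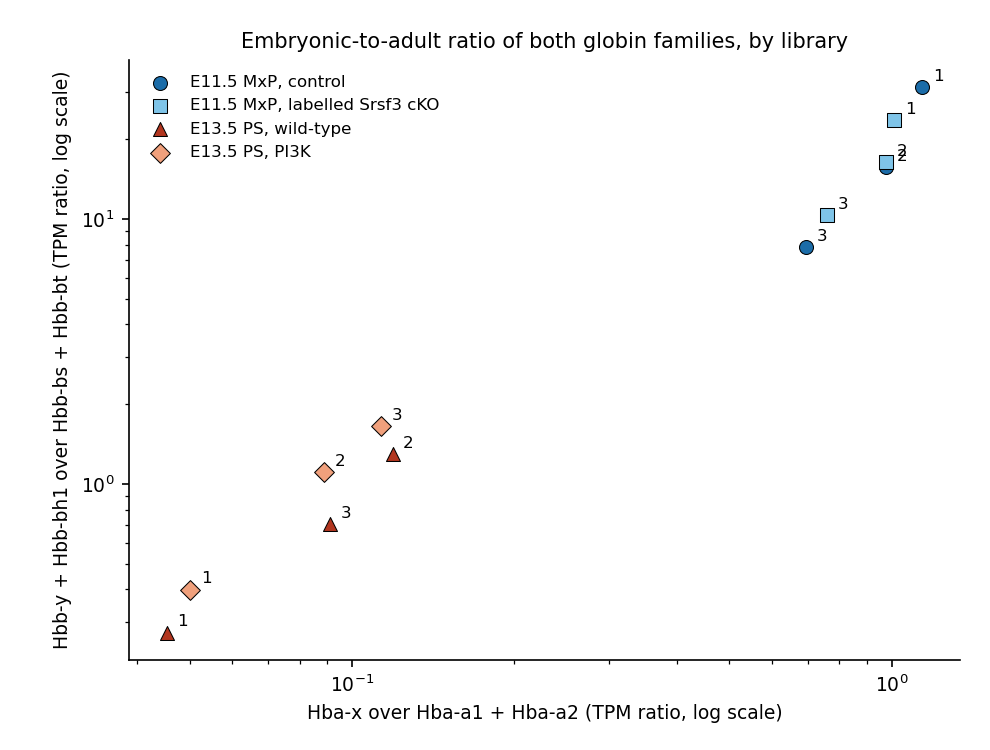
Embryonic-to-adult TPM ratio of the beta family against that of the alpha family (both log scales), one point per library with its replicate number. The E11.5 libraries lie at beta ratios of 7.81 to 31.4 and the E13.5 libraries at 0.274 to 1.66, and the ratios rise together within each stage.

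Same-numbered libraries of the maxillary process had similar ratios. The beta ratio was 31.4 in control 1 and 23.6 in cKO 1, 15.7 and 16.4 in the libraries numbered 2, and 7.81 and 10.4 in those numbered 3. In the palatal shelf both libraries numbered 1 were the lowest of their group, at 0.274 and 0.399. The labels do not say what the number stands for, and over all genes the deviations of same-numbered MxP libraries correlated at 0.08, 0.11 and 0.23. The permutation tests of the correlations and of the pooled stage ratios treat each library as independent. Their p-values would be too small if the number marked a shared source, which was not tested.

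Embryos with the PI3K allele were compared with wild-type at E13.5, where the design asks whether the loss of this branch of Pdgfra signalling changed expression in the shelf. Of 16525 genes 0% passed an adjusted p of 0.05 and 2.14% had an unadjusted p under 0.05 in edgeR (354 genes, with 4 genes called by DESeq2 and 0 by limma). None of the 9 genes passed, and 0 of 9 had an unadjusted p under 0.05. All 9 were lower in estimate in PI3K, with log2 fold changes from -0.88 to -0.23 and a median of -0.58, beside a median of -0.01 over all genes. In 0 of the 9 genes did all PI3K libraries lie below all wild-type libraries, as 3.11% of all genes did.

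Hbb-bs came nearest to the threshold, with 1270, 846 and 1030 TPM in PI3K against 3061, 1614 and 1054 TPM in wild-type (log2 fold change -0.88, 95% interval -1.78 to 0.01, unadjusted p = 0.0514, adjusted p = 1.00, edgeR). PI3K libraries 2 and 3 lay below the lowest wild-type value and library 1 above it. Hbb-y was least changed in estimate, with 547, 1028 and 1876 TPM in PI3K against 922, 2276 and 783 TPM in wild-type (log2 fold change -0.23, 95% interval -1.47 to 1.01, edgeR). PI3K library 3 was high for all 3 embryonic globins, and wild-type library 3 was the lowest wild-type library for all of the 9 genes but Hbb-bh1. Without wild-type library 2 only 6 of the 9 genes were lower in estimate, and without PI3K library 1 the count was 7. Without wild-type library 3 all 9 were lower, with a median of -0.88, and 5 had an unadjusted p under 0.05 (edgeR). The share of all genes under 0.05 was not counted in that fit, so the 5 have no background to be read against. The ratios did not differ detectably either: embryonic to adult beta globin was 1.43-fold higher in estimate in PI3K (exact permutation p = 0.6) and the alpha ratio 1.01-fold (p = 1), where 3 against 3 libraries cannot go below 0.10.

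In the maxillary process, embryos labelled Srsf3 cKO were compared with controls without Cre, which addresses the loss of this splicing factor from neural crest cells. Of 14254 genes 0.0842% passed the threshold and 12.2% had an unadjusted p under 0.05 in edgeR (12 and 1746 genes, with 376 genes called by DESeq2 and 12 by limma). Of the 9 genes 0 passed and 0 had an unadjusted p under 0.05. All 9 were higher in estimate in the cKO libraries, with log2 fold changes from 0.17 (Hbb-bt) to 0.64 (Hbb-bh1) and a median of 0.47, beside 0.00 over all genes. In 0 of the 9 genes did all cKO libraries lie above all controls, as 8.76% of all genes did.

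The size of these estimates rested mostly on 1 library. The library labelled Srsf3 cKO 1 held 4.04% of its TPM in the 9 genes, where the other 5 MxP libraries held 1.38% to 2.40%. Hbb-y had 11433 TPM there against 4398 and 7101 TPM in cKO 2 and 3 and 3898 to 7324 TPM in the controls. Hba-x had 11043 TPM there, and 3961 and 5368 TPM in cKO 2 and 3, against 3997 to 6415 TPM in the controls. Without cKO library 1 only 6 of the 9 genes were higher in estimate, and the median log2 fold change of the 9 was 0.04. Without control library 1 or without cKO library 3, 7 were higher, with medians of 0.25 and 0.52. Hbb-bs and Hbb-bt each changed sign in 2 of the 6 fits that left out a library. Without cKO library 2 all 9 were higher and 4 had an unadjusted p under 0.05 (edgeR). The share of all genes under 0.05 was not counted in that fit, so the 4 have no background to be read against. The composition of the globin pool was alike between the groups in estimate: the fold difference was 1.01 for the embryonic-to-adult beta ratio and 0.991 for the alpha ratio (exact permutation p = 0.9 each, smallest possible 0.10).

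Marker lists of other cells differed in direction in this comparison. All 10 endothelial markers were higher in the cKO libraries. Of these, 10 had an unadjusted p under 0.05, beside 12.2% of all genes, and 0 had an adjusted p under 0.05 (edgeR). Their sum was 306 to 574 TPM against 234 to 242 TPM in the controls. Without cKO library 1 the endothelial markers were still higher in 10 of 10, 8 of them with an unadjusted p under 0.05 (edgeR). The share of all genes under 0.05 was not counted in that fit. All 10 macrophage markers were also higher in estimate (8 of 10 without cKO library 1), at 37.9 to 61.4 against 26.8 to 34 TPM, as were 8 of 8 ectoderm markers tested. Megakaryocyte and platelet markers, another blood lineage, were higher in 1 and lower in 7 of 8 (median log2 fold change -0.31). Only 2 of 8 lymphoid and myeloid blood markers were tested, and 2 of 2 were higher (median 1.39, 0 with an adjusted p under 0.05, edgeR). The sum of those 8 was 4.28 to 14.4 TPM in the cKO libraries and 4.35 to 5.90 TPM in the controls. Neuron and glia markers were lower in 6 of 6 (median -0.89) and mesenchyme markers in 8 of 10 (median -0.45). The part of blood vessels or of blood content in the red cell values was not tested.

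Other genes of red cells were examined as lists chosen by function, which give the surroundings of the 9 genes. Between the stages the red cell membrane and skeleton genes fell most: 13 of 15 fell and 1 rose, where 23.4% of all genes fell and 27.1% rose, with a median log2 fold change of -4.04 beside 0.03 over all genes. Icam4, a red cell adhesion molecule, fell by 5.34 on the log2 scale, and Rhag, a Rhesus-associated ammonia channel, by 5.03. Kel, the Kell blood group protein, fell by 4.38 (adjusted p = 0.000397 or less for these 3, edgeR). Kel averaged 6.82 TPM in the controls and 0.493 TPM in wild-type PS. The exception was Aqp1, a water channel that endothelium and other tissues also express, which rose by 5.23 on the log2 scale (adjusted p = 0.000327, edgeR), from 0.691 to 29.6 TPM.

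Of 12 erythroid transcription factors 7 fell and 2 rose, again beside 23.4% and 27.1% of all genes, with a median of -1.06. Gata1, the master regulator of red cell genes, fell by 4.65 on the log2 scale, Gfi1b, a repressor acting with it, by 4.55, Klf1, the activator of adult beta globin, by 4.34, Nfe2 by 2.37 and Tal1 by 1.71 (adjusted p = 0.00146 or less, edgeR). Gata1 averaged 4.38 TPM in the controls and 0.19 TPM in wild-type PS, and Klf1 8.27 and 0.445 TPM. The factors that rose were Cbfa2t3, a corepressor, by 1.36, and Sox6, a silencer of embryonic globins that is also a cartilage factor, by 1.18 (adjusted p = 0.000463 and 0.00962, edgeR). Sox6 averaged 17.6 TPM in the controls and 34.2 TPM in wild-type PS, levels far above that of Gata1. Bcl11a, another silencer of embryonic globins and also a neural gene, is added after its values were seen: it fell by 1.59 (adjusted p = 0.000806, edgeR), from 104 to 172 TPM in the controls to 41.6 to 58.4 TPM in wild-type PS, without overlap.

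Among 13 tested genes of erythropoietin signalling and late red cell proteins 9 fell and 3 rose (23.4% and 27.1% of all genes), with a median of -0.85. The largest falls were in Hemgn (-5.93), a nuclear protein of blood cell precursors, Trim58 (-4.78) and Trim10 (-3.94), ubiquitin ligases of maturing red cells, Car2 (-2.99), carbonic anhydrase, and the tetraspanin gene Tspan33 (-1.93), with adjusted p-values of 0.00156 or less (edgeR). The 3 that rose were Stat5a (1.67), Jak2 (0.63) and Stat5b (0.60), signalling genes used by many cell types (adjusted p = 0.013 or less, edgeR). Haem synthesis genes moved little: 2 of 8 fell, among them Urod, a decarboxylase of the pathway, by 0.48 (adjusted p = 0.0156, edgeR), and 0 rose. Of 8 iron uptake genes 4 fell, led by the mitochondrial iron importer Slc25a37 (-1.88, adjusted p = 9.84e-05) and the transferrin receptor Tfrc (-1.04, adjusted p = 0.00566, edgeR), with smaller falls in Abcb10 (-0.45) and Slc25a38 (-0.42). Trf, transferrin itself, passed the test on counts (0.86, adjusted p = 0.0373, edgeR), but its TPM overlapped, at 5.01, 2.01 and 3.09 in the controls and 5.28, 3.18 and 3.84 in wild-type PS. Without wild-type library 3 the number of genes past the threshold was 3 in place of 5 for iron uptake and 1 in place of 2 for haem synthesis. Platelet and megakaryocyte markers, another blood lineage, fell in 8 of 8 with a median of -3.33. Among lymphoid and myeloid blood markers 3 were tested: 2 were higher in estimate and did not pass, and 1 was lower and passed the threshold (edgeR).

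**Figure D5:**
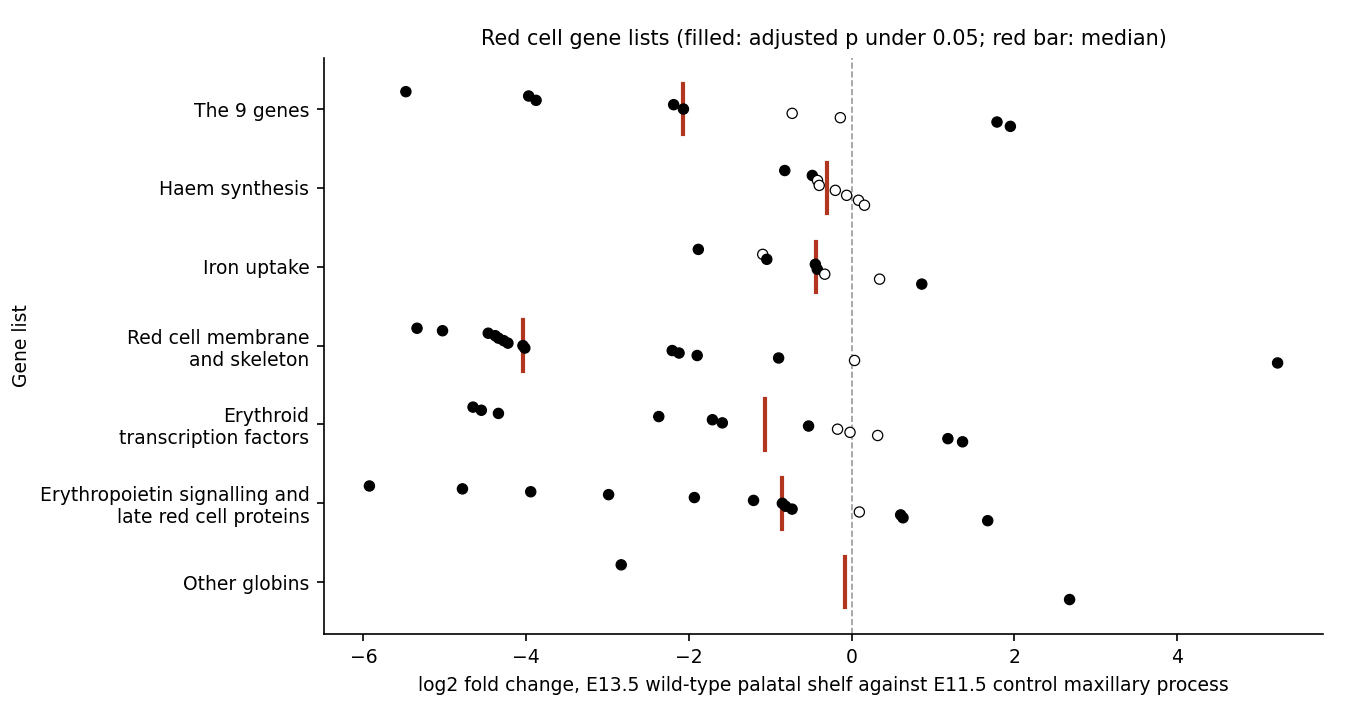
Log2 fold change between E13.5 wild-type PS and E11.5 control MxP for each tested gene of the red cell lists, filled where the adjusted p is under 0.05 (edgeR), with a red bar at the median. The membrane and skeleton list has the lowest median, -4.04, and the haem synthesis list lies near 0 with a median of -0.30.

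Within each tissue 0 of the genes of these 5 lists passed the adjusted threshold in edgeR, while 3 of 50 tested in the palatal shelf (6%, beside 2.14% of all genes) and 5 of 56 in the maxillary process (8.93%, beside 12.2%) had an unadjusted p under 0.05. In the palatal shelf the medians of the 5 lists lay between -0.10 and -0.01, nearer to 0 than the median of -0.58 of the 9 genes. Of the most abundant list members, Prdx2, a peroxiredoxin of red cells and other tissues, had a log2 fold change of 0.03, Epb41, a membrane skeleton protein, 0.09 and Alad, a haem enzyme, -0.10 in PI3K against wild-type. In the maxillary process 12 of 15 membrane genes, 8 of 8 iron uptake genes and 9 of 12 transcription factors were higher in estimate in the libraries labelled Srsf3 cKO. Without cKO library 1 these counts were 6, 6 and 5. Tfrc had a log2 fold change of 0.55 there (unadjusted p = 0.0484, adjusted p = 0.408, edgeR) and Slc25a37 of 0.44.

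Across the 12 libraries, with each group's mean taken out, the globins of the same type went together. Hba-x went with Hbb-y (r = 0.976) and with Hbb-bh1 (r = 0.931), Hbb-bs with Hbb-bt (r = 0.9746) and Hba-a1 with Hba-a2 (r = 0.988). Hbb-bh1 and Hbb-bs did not go together (r = -0.105). The types were not separate blocks. Hba-a1 went with the embryonic Hbb-y (r = 0.773), Hba-x (0.750) and Hbb-bh1 (0.532) and with the adult Hbb-bt (0.765) and Hbb-bs (0.744). Alas2 followed Hba-a2 (r = 0.937) more closely than Hbb-bh1 (r = 0.411), and Slc4a1 followed Hba-a1 (r = 0.945) and Hba-x (r = 0.903). These correlations of log2(TPM + 1) are descriptions of 12 values that share library and depth, and the adult pairs also share sequence.

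The genes most like the mean of the 9 by the same measure, among 14335 genes of at least 1 TPM on average, were Timm17b (r = 0.951), Cldn13 (0.937), Nsmce1 (0.925), Gm6594 (0.918), Ctse (0.918), Vps35l (0.916), Ccdc28a (0.903), Gm6161 (0.899), Tmem265 (0.896) and Ube2l6 (0.886). The 9 genes themselves ranked from 1 (Hba-a1) to 540 (Hbb-bh1, r = 0.623) in that order, so a high rank over so few libraries is a loose measure of likeness.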

How the data were processed

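Polyadenylated RNA of 12 libraries in 4 groups of 3 was analysed. The authors deposited estimated counts per gene and, separately, TPM per gene, both from Salmon by the names of the 4 tables. The submitters' processing notes list Salmon 1.1.0, STAR 2.7.0, DESeq2 1.28.1 and build mm10, without their roles, and strand handling, index and trimming are not given in the sources used here. Symbols were taken from GENCODE M21 (GRCm38), which 53355 of 53392 identifiers matched without the version suffix.

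The 9 genes and all gene lists were chosen with earlier results of these data known. After rounding, edgeR 4.0.16 (R 4.3.3) was run on the estimated counts (TMM, default filter on low counts, quasi-likelihood F-test, group as the only term, Benjamini-Hochberg adjustment over all genes tested, threshold 0.05), each comparison on its own 6 libraries. SE and 95% intervals of log2 fold changes come from the F statistic. The stage comparison joined counts of separately deposited tables by identifier. Ratios are sums of TPM within a library, tested on the log2 scale by a two-sided exact permutation test with adjustment over 18 tests (scipy 1.17.1 and Python 3.11.15). Alternatives were other normalisations and filters, DESeq2 1.42.0, limma 3.58.1 on log2(TPM + 1) and log2(TPM + 0.1), a replicate block and leaving out each library. The named genes are the 9, list genes past the threshold (up to 5 in each direction per list), otherwise up to 4 of a list's most abundant genes, and the 10 most alike genes; a few list genes that the rule names are not reported here. Simulated data had 200 changed genes, drawn at random from all genes tested. There edgeR recovered 59% of 2-fold and 84% of 4-fold changes in the stage comparison (15752 genes). It recovered 53% and 74% in the palatal shelf (16525 genes) and 69% and 87% in the maxillary process (14254 genes).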

Additional observations from a re-analysis of the deposited data

How the results depend on the processing

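Within each tissue 0 of the 9 genes were called under every alternative run. Between stages 5 to 7 were called; in the contrast of PI3K with cKO libraries, added after seeing the data, Hba-a1 and Hba-a2 were called and Hbb-bs and Hbb-bt were not. With DESeq2 in place of edgeR 376 and not 12 of all genes were called in the maxillary process, and the cause was not tested. On simulated data for that comparison 45 of 214 DESeq2 calls and 8 of 164 edgeR calls were genes that had not been changed. The Hbb-bs and Hbb-bt calls were also lost with the replicate number as a block (adjusted p = 0.10 and 0.0906, edgeR), which left 5 genes called. Replicate numbers were not treated as pairs, since the labels give no shared source and at least 1 same-numbered pair in each comparison correlated at 0.1 or less: same-numbered deviations correlated at -0.22 to 0.53 in the palatal shelf, 0.08 to 0.23 in the maxillary process and -0.14 to 0.03 between stages, and not every library correlated best with its own number. Over all genes the block moved the calls from 0 to 0, from 12 to 40 and from 7965 to 6835. The stage ratios kept their direction in all 72 fits that left out a library and, except for alpha to beta, with estimated counts. With wild-type against control libraries alone and with PI3K against cKO libraries alone, where 3 against 3 cannot pass the exact permutation threshold (adjusted p = 0.3), the log2 differences were -4.64 and -4.14 for the beta ratio, -3.54 and -3.52 for the alpha ratio, -3.23 and -3.41 for Hbb-bh1 to Hbb-y, 0.15 and 0.10 for alpha to beta, -0.87 and -0.86 for Alas2 and -2.67 and -2.50 for Slc4a1 to globin. Alpha to beta was -0.18 with estimated counts, which carry no correction for length.

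Some values that were not called changed sign when 1 library was left out. In PI3K against wild-type the log2 fold change ran from -1.06 to 0.032 for Hba-x, -0.73 to 0.43 for Hbb-y and -0.81 to 0.28 for Hbb-bh1. In cKO against control it ran from -0.060 to 0.76 for Hba-x, -0.22 to 0.74 for Hbb-bt, -0.22 to 0.66 for Hbb-bs, -0.21 to 0.94 for Hbb-bh1 and -0.027 to 0.76 for Slc4a1. Hba-a2 ran from -0.40 to 0.17 between stages. Log2 ratio differences ran in the palatal shelf from -0.084 to 1.103 (beta), -0.39 to 0.35 (alpha), -0.25 to 0.074 (Hbb-bh1 to Hbb-y), -0.13 to 0.26 (Alas2) and -0.12 to 0.38 (Slc4a1), and in the maxillary process from -0.48 to 0.52 (beta), -0.22 to 0.14 (alpha), -0.28 to 0.35 (Hbb-bh1 to Hbb-y), -0.025 to 0.035 (alpha to beta) and -0.059 to 0.024 (Slc4a1). With 3 libraries a group, simulated 2-fold changes were recovered in 53% to 69% of genes, so smaller differences can go undetected.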

Other observations

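Among other globins, Cygb, cytoglobin of fibroblasts and other cells, rose between E11.5 control maxillary process and E13.5 wild-type palatal shelf (2.98 to 21.1 TPM on average, log2 fold change 2.68, adjusted p = 0.000376, edgeR), and Hbq1b, theta globin, fell (3.80 to 0.531 TPM, log2 fold change -2.83, adjusted p = 0.00421, edgeR). The remaining 5 of 7 such genes were not tested because of low counts, and Hbb-bh0 was listed at 2.62 TPM in PI3K palatal shelf library 3 and at 0 in the other 11 libraries.

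Skeletal muscle markers, which are not of the red cell lists, were higher in estimate in PI3K than in wild-type palatal shelf in 8 of 8 (median 2.63 on the log2 scale). In edgeR 0 passed an adjusted p of 0.05, and 2 had an unadjusted p under it, where 2.14% of all genes did. Without wild-type library 1 all 8 had an unadjusted p under 0.05 and the median was 6.39, and without PI3K library 2 the number was 4. It was 0 without wild-type library 2 or 3 or PI3K library 1, and 1 without PI3K library 3. The share of all genes under 0.05 was not counted in these fits with a library left out. The sum of the 8 markers ran from 40.1 to 280 TPM in PI3K and from 4.85 to 67.5 TPM in wild-type libraries.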
